A study of Rattus norvegicus with 12 samples.

Results

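The endothelin system was described from 7 genes of the rat lung: the ligand genes Edn1, Edn2 and Edn3, the receptor genes Ednra and Ednrb, and the endothelin-converting enzyme genes Ece1 and Ece2. They were taken by symbol from a table of 19230 gene rows, and each of the 7 had a row of its own. RNA was sequenced from Sprague-Dawley rats in 4 groups of 3 libraries. They were, at day 4 of SuHx, total lung labelled Ahr-KO and wild-type (WT) total lung (SuHx is Sugen, the VEGF receptor inhibitor SU5416, with hypoxia), then WT endothelial cells (ECs) in normoxia and WT lung in normoxia at day 0. The ECs carry day 4 in the sample labels and 0 in the table's column names. Ahr encodes the aryl hydrocarbon receptor, a ligand-activated transcription factor, and SU5416 is also known as one of its ligands. How the knockout was made, how the ECs were isolated, and the age and sex of the rats are not stated in the labels. There was no Ahr-KO group in normoxia among the samples analysed here, so whether genotype changed the response to SuHx could not be tested. Libraries are named by group and by the suffix 0, 1 or 2 of their column. The labels do not say whether the 3 libraries of a group came from separate animals, so p-values measure only the spread between these samples, which may be technical.

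Endothelins are small vasoactive peptides made as inactive precursors, which furin-like proteases and then the endothelin-converting enzymes cut to the active form. Endothelin 1, released mainly by endothelial cells, constricts vessels through the type A receptor (Ednra) on smooth muscle, while the type B receptor (Ednrb) on endothelium releases nitric oxide and prostacyclin and clears the peptide. Receptor blockers are used to treat pulmonary arterial hypertension, which the SuHx rat models, and in mouse lung Ednrb is a marker of the Car4+ capillary cells called aerocytes.

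The promoters of Edn1, the member that differed between genotypes, and of the receptors are shown because Ahr, hypoxia-inducible factors, GATA factors and AP-1 are all known regulators of transcription in vessels. Each is the 250 bases before the annotated start, 5′ to 3′, from RefSeq on the GRCr8 build: Edn1 from chr17:22666688-22666937 on the minus strand, Ednra from chr19:47137674-47137923 on the plus strand and Ednrb from chr15:87086766-87087015 on the minus strand. Capitals mark the motifs found.
Edn1: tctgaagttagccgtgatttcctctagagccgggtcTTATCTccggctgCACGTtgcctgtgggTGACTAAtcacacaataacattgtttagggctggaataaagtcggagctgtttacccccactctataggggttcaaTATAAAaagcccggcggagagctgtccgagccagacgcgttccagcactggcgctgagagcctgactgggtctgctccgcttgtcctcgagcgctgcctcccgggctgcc
Ednra: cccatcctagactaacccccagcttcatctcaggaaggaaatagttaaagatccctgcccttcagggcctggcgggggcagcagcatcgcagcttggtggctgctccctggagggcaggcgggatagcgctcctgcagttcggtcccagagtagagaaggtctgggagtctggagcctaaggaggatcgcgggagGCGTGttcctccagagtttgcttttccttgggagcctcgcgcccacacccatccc
Ednrb: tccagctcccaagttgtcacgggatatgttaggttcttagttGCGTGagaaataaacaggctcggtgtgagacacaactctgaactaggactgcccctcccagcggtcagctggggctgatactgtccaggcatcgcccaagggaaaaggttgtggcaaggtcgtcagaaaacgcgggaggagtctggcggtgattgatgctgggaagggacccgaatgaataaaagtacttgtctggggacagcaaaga
Both strands were searched for the core of the Ahr element, spelled GCGTG, the core of the hypoxia element, spelled ACGTG, and the GATA motif, spelled AGATAA. They were also searched for the AP-1 motif, spelled TGANTCA, a variant of it known from the human EDN1 promoter, spelled TGACTAA, and a TATA box, spelled TATAAA. The matches found did not overlap each other. The Edn1 window held TTATCT, which matches the GATA motif on the other strand, 214 bases before the start. It held CACGT, the hypoxia core on the other strand, 201 bases before the start. The AP-1 variant lay 186 bases before the start and the TATA box 110 bases before it. The window held neither the Ahr core nor the AP-1 motif itself. The Ahr core lay 55 bases before the start in Ednra and 208 bases before it in Ednrb. The windows of Edn2, Ece1 and Ece2 held none of the motifs, and no window of Edn3 was examined. Of 33469 rat promoter windows of the same place and length, 25.9% held the Ahr core, 16.6% the hypoxia core, 10.3% the GATA motif, 6.34% the AP-1 motif, 1.99% its variant and 12.9% the TATA box. A match describes letters in this window and says nothing of binding.

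The values are a signal, reads divided by 1 factor per library, with 1 read worth 0.745 to 1.248. Libraries summed to a signal of 20.6 M to 27.1 M, from about 20.04 M to 28.6 M reads. The signals of all 7 members were whole reads in all 12 libraries, within 0.05 of a read. Ahr mRNA, the targeted gene, had a signal of 1800 to 2523 in SuHx lungs labelled Ahr-KO and 1740 to 3073 in WT SuHx lungs (limma, log2 fold change 0.03 ± 0.26 SE, adjusted p = 0.966). The label was therefore not checked by this mRNA. Cyp1a1, a target gene of Ahr, had 3.87 to 5.32 in lungs labelled Ahr-KO, against 65459 to 75070 in WT SuHx lungs and 39.2 to 476 in WT normoxia lungs. Heart muscle RNA stood apart by library. The summed signal of 6 cardiac markers was 4980 to 21432 in lungs labelled Ahr-KO and 2027 to 2819 in WT SuHx lungs. It was 303 to 10255 in WT normoxia lungs, with Myh6 at 673 to 4900 in the Ahr-KO lungs and at 0 in all 3 WT SuHx lungs. In WT SuHx lungs 2 of the 6 markers were at 0 in every library and Myl7 had 0 to 0.745. The sum there came from the other markers and need not be heart muscle RNA. The ECs carried the 10 endothelial markers at a sum of 283915 to 346159, against 103690 to 108620 in normoxia lung, and all 10 were called higher. The 6 leukocyte markers summed to 14880 to 20982 in ECs and 14772 to 15981 in normoxia lung, with 3 of the 5 tested called higher and 1 lower. Their median log2 fold change was 1.32, beside 1.49 for the endothelial markers. Ptprc, the general leukocyte marker, had 8628 to 13428 in ECs and 3986 to 4644 in normoxia lung. The 8 alveolar epithelial markers were all called lower in ECs, at a sum of 106669 to 240363 against 487129 to 706576 in normoxia lung.

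Edn1 was the only one of the 7 members called in a comparison of lung groups, lower in the lungs labelled Ahr-KO, and 6 members were called between ECs and normoxia lung, not counting Edn2, which had too few reads. Differences were tested with limma on log2(signal + 1) over all genes whose mean signal reached 1. The threshold for a call was 0.05 after Benjamini-Hochberg adjustment, and fold changes on this scale understate those of low genes. In SuHx lungs labelled Ahr-KO against WT SuHx lungs, 1 of 6 tested members was called, Edn1, which was lower, beside 76 of 15234 genes or 0.499% (0.197% higher and 0.302% lower). Between WT SuHx and WT normoxia lungs, 0 of 6 were called, beside 2052 genes or 13.5% (7.08% higher and 6.39% lower). Unadjusted p-values there were under 0.05 for 3 of the 6 members and for 4828 genes or 31.7%. Between lungs labelled Ahr-KO in SuHx and WT normoxia lungs, 1 of 6 was called, again Edn1, beside 1485 genes or 9.75% (5.95% higher and 3.8% lower). Unadjusted p-values there were under 0.05 for 5 of the 6 members and for 3966 genes or 26%. In ECs against normoxia lung Edn1, Ednrb and Ece1 were called higher and Edn3, Ednra and Ece2 lower. All genes had 26.1% called higher and 30.1% lower there, 56.2% in all, so that a call in this comparison was common. Each pair of lung comparisons shares a group of libraries, and they are not independent of each other.

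**Figure D1:**
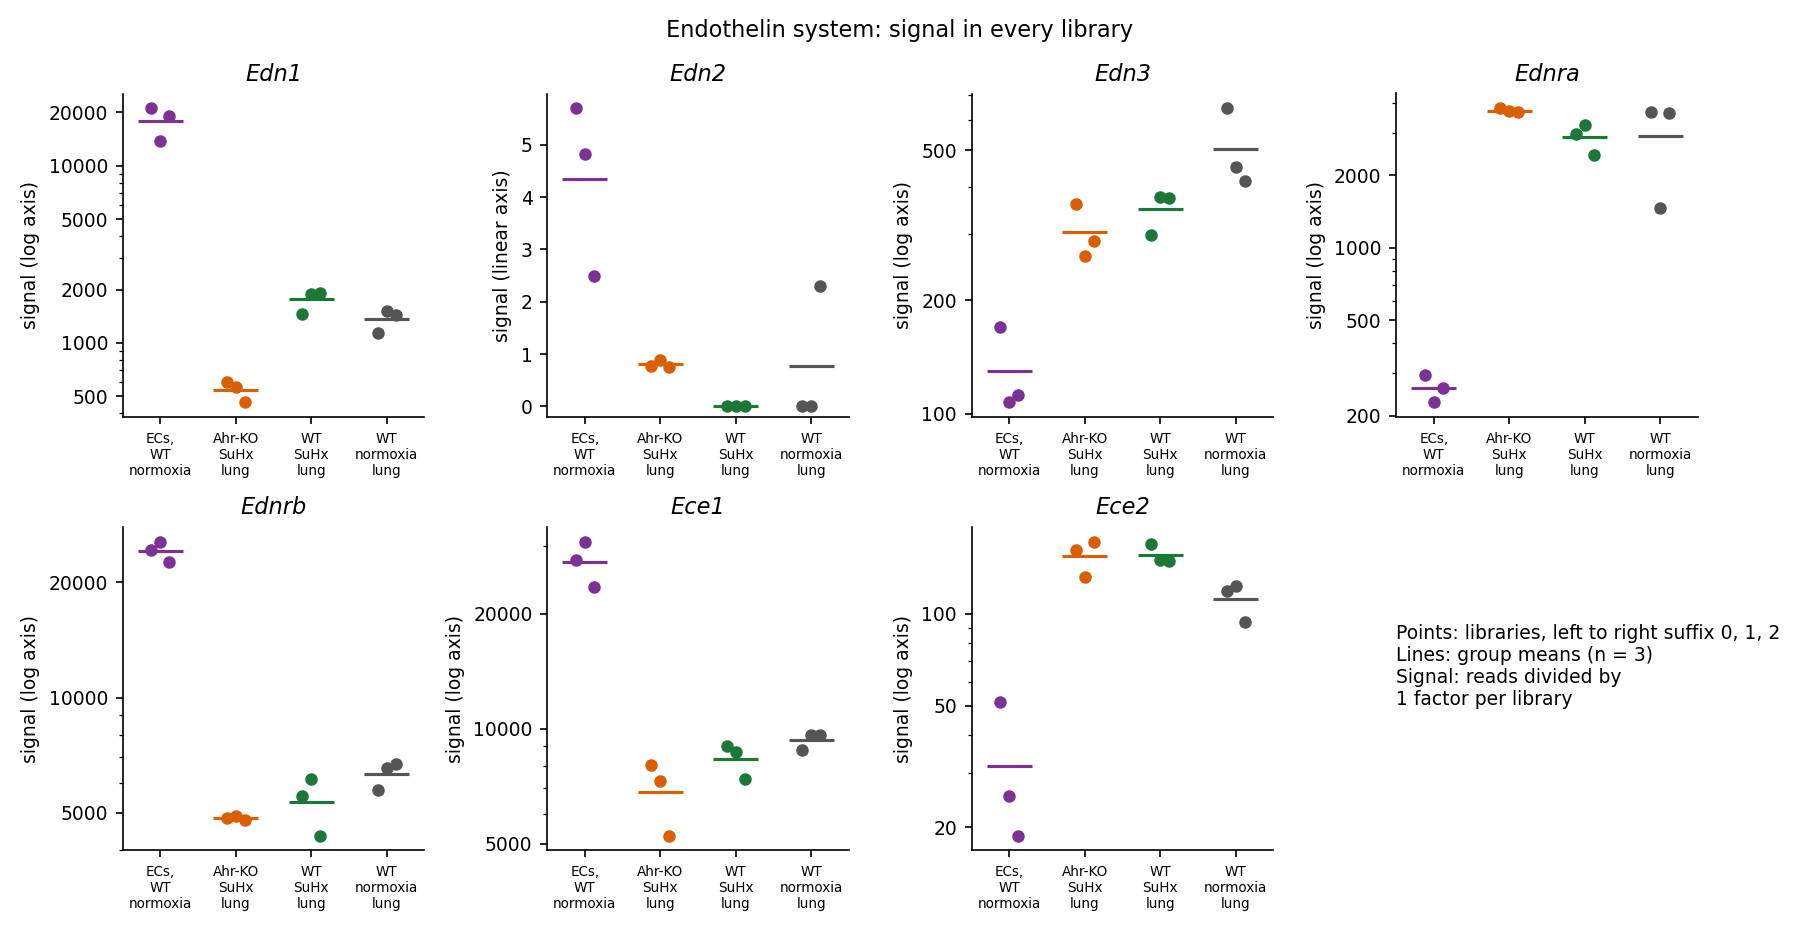
Signal of each member in every library (vertical axis; log scale except for Edn2, linear) by group (horizontal axis, 3 libraries each, line at the mean). Edn1 sits at 463 to 604 in SuHx lungs labelled Ahr-KO, below the 6 WT lungs at 1136 to 1921 and far below the ECs at 13696 to 21094.

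Edn1 encodes the precursor of endothelin 1. Its signal was 604, 564 and 463 in libraries 0, 1 and 2 of the SuHx lungs labelled Ahr-KO, 1465, 1888 and 1921 in those of the WT SuHx lungs, and 1136, 1506 and 1446 in those of the WT normoxia lungs. The 3 Ahr-KO values lay below every WT value, and the WT SuHx and WT normoxia ranges overlapped. These signals rest on 609 to 781 reads per library in the Ahr-KO lungs and 1549 to 2580 reads in the WT SuHx lungs. Edn1 averaged 543.77 ± 73.0 in lungs labelled Ahr-KO and 1758 ± 254 in WT SuHx lungs (SD, n = 3 each). That is 3.23-fold lower in the Ahr-KO lungs (limma, log2 fold change -1.69 ± 0.16 SE, adjusted p = 0.0016). By p-value Edn1 ranked 11 among the 15234 genes tested there, and 18 by fold among the 46 called lower. Against WT normoxia lungs, which averaged 1362.5 ± 198 (SD, n = 3), the Ahr-KO lungs were 2.5-fold lower (limma, log2 fold change -1.32 ± 0.16 SE, adjusted p = 8.37e-04). WT SuHx lungs differed from WT normoxia lungs by 0.37 ± 0.16 SE on the log2 scale, with a 95% interval of 0.02 to 0.72 and a limma adjusted p of 0.14. Both Edn1 calls held in all 19 alternative settings. The 19 include the fit without library 2 of the Ahr-KO and normoxia lungs, which carried the most heart muscle RNA of their groups. That fit gave -1.58 against WT SuHx lungs (limma, adjusted p = 0.0107). The other Ahr-KO libraries held such RNA too, and its part in the difference was not tested.

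Endothelial cell markers were set beside Edn1, since in bulk tissue fewer cells of a type and less RNA per cell cannot be told apart. Between lungs labelled Ahr-KO and WT SuHx lungs, 0 of 10 endothelial markers were called in either direction, with a median log2 fold change of 0.03. Of all genes only 0.499% were called there (0.197% higher and 0.302% lower), so the absence of calls among 10 genes does not show that endothelial RNA was unchanged. Their summed signal was 70969 to 92128 in Ahr-KO lungs and 78211 to 85293 in WT SuHx lungs. Of 7 arterial endothelial markers, Gja4 and Efnb2 were called higher in Ahr-KO lungs, 0 lower and 5 in neither direction. Their sum was 9345 to 10488 in Ahr-KO lungs against 5852 to 6107 in WT SuHx lungs. Between WT SuHx and WT normoxia lungs, 1 of the 10 endothelial markers was called higher and 3 lower, with sums of 78211 to 85293 and 103690 to 108620.

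Within each library, log2(Edn1 + 1) minus the mean log2(signal + 1) of the 10 endothelial markers gave the level of Edn1 relative to endothelial RNA, a measure added after the data had been seen. It was -3.70, -3.68 and -3.67 in lungs labelled Ahr-KO, -2.21, -1.94 and -1.81 in WT SuHx lungs, and -2.88, -2.44 and -2.58 in WT normoxia lungs. The 3 lung groups did not overlap. The Ahr-KO lungs were 1.70 lower than WT SuHx lungs on this log2 scale (difference -1.70; exact permutation test, two-sided, p = 0.1). The WT SuHx lungs were 0.65 higher than WT normoxia lungs (exact permutation p = 0.1), where the gene by itself was not called. With 3 libraries against 3, 0.1 is the smallest p this test can give. In ECs the measure was -0.22, -0.88 and -0.18, which was 2.21 above normoxia lung (exact permutation p = 0.1).

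**Figure D2:**
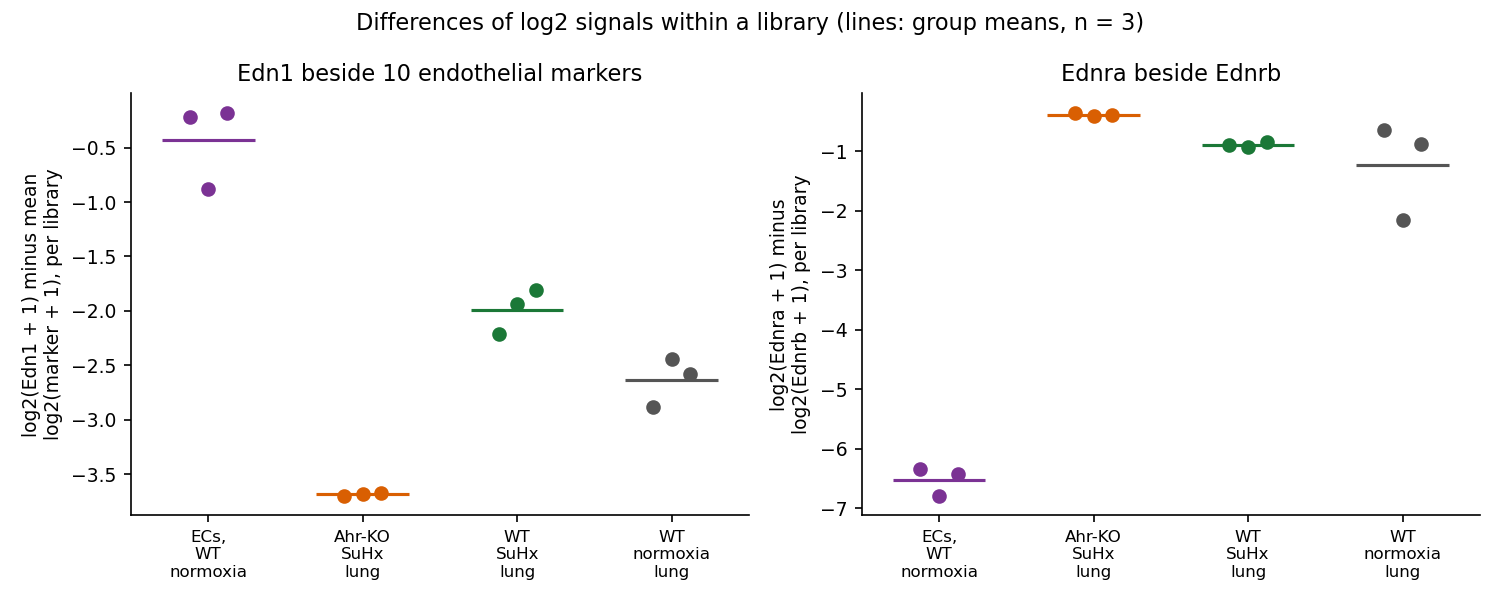
Left, log2(Edn1 + 1) minus the mean log2(signal + 1) of 10 endothelial markers; right, log2(Ednra + 1) minus log2(Ednrb + 1); points are libraries, lines are means of 3. On the left the Ahr-KO lungs lie at -3.70 to -3.67, below the other groups; on the right they lie at -0.41 to -0.35, above every WT lung.

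In ECs Edn1 had a signal of 21094, 13696 and 19091, against 1136, 1506 and 1446 in normoxia lung, without overlap. It averaged 17960 ± 3826 in ECs and 1362.5 ± 198 in normoxia lung (SD, n = 3 each), 13.1-fold higher in ECs (limma, log2 fold change 3.71 ± 0.18 SE, adjusted p = 2.20e-05). The 10 endothelial markers had a median log2 fold change of 1.49 in the same comparison. The immediate early genes Jun, Fos and Junb moved with it. Their signals in ECs were 87907 to 119409 for Jun, 33227 to 49766 for Fos and 42216 to 49940 for Junb, against 5129 to 5471, 197 to 697 and 827 to 2363 in normoxia lung. Such genes are known to respond to cell isolation, and their part in the level of Edn1 in ECs was not tested.

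Edn2, which encodes endothelin 2, was close to undetected. It had 1 read in each lung library labelled Ahr-KO, 0 reads in each WT SuHx lung and 0, 0 and 3 reads in the WT normoxia lungs. In WT SuHx lungs a count of 0 allows up to 3 reads, a signal of 2.23 to 2.84, counting error only. Edn2 was left out of the lung tests by the filter on low values. ECs had 5, 4 and 2 reads. Edn2 reached the filter in ECs against normoxia lung only through the ECs, so its adjusted p of 0.0455 (limma), past the threshold in 8 of 14 alternatives, is not counted as a difference, and no fold is given.

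Edn3, which encodes endothelin 3, the ligand known mainly for Ednrb signalling in neural crest development, had a signal of 360, 261 and 288 in lungs labelled Ahr-KO. It had 297, 376 and 374 in WT SuHx lungs and 646, 450 and 413 in WT normoxia lungs. Both SuHx groups lay below all 3 normoxia values and overlapped each other. Edn3 averaged 303 ± 51.0 in lungs labelled Ahr-KO and 503 ± 125 in WT normoxia lungs (SD, n = 3 each), with a log2 fold change of -0.71 ± 0.20 SE and an adjusted p of 0.0512 (limma). It passed the threshold in 3 of 19 alternatives: with quantile normalization (0.0412), with a minimum mean signal of 5 (0.0487) and without WT normoxia library 2 (0.0358). WT SuHx lungs, at 349 ± 45.1 (SD, n = 3), had a log2 fold change of -0.51 ± 0.20 SE against normoxia (limma, adjusted p = 0.114). Between genotypes it was -0.21, with a 95% interval of -0.65 to 0.23. In ECs Edn3 had 170, 107 and 112, below every lung library, and was 3.87-fold lower than in normoxia lung (limma, log2 fold change -1.95 ± 0.25 SE, adjusted p = 5.66e-04).

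Ednra encodes the type A receptor, the constrictor receptor of smooth muscle, also found on fibroblasts. Its signal was 3799, 3687 and 3662 in lungs labelled Ahr-KO, 2975, 3225 and 2423 in WT SuHx lungs and 3666, 1463 and 3623 in WT normoxia lungs. The Ahr-KO values all lay above the WT SuHx values, and the normoxia group was spread by its library 1, at 1463. Ednra averaged 3716 ± 73.3 in lungs labelled Ahr-KO and 2874 ± 410 in WT SuHx lungs (SD, n = 3 each). The log2 fold change of 0.38 ± 0.30 SE was not called (limma, 95% interval -0.30 to 1.06, adjusted p = 0.589). Against WT normoxia lungs (2917 ± 1259, SD, n = 3) it was 0.47 ± 0.30 SE in the Ahr-KO lungs (limma, adjusted p = 0.361) and 0.09 ± 0.30 SE in the WT SuHx lungs (limma, adjusted p = 0.867). Without normoxia library 1 these values were 0.03 (adjusted p = 0.928) and -0.35 (adjusted p = 0.128). That library also had the lowest sums of the 3 normoxia lungs for the 6 fibroblast markers, at 16130, and for the 6 smooth muscle markers, at 19094.

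Smooth muscle markers and some fibroblast markers were higher in the SuHx lungs, while Ednra was not called. Summed smooth muscle markers were 38540 to 56275 in lungs labelled Ahr-KO and 40399 to 56728 in WT SuHx lungs, against 19094 to 26874 in WT normoxia lungs. In each SuHx group 4 of the 6 markers, Acta2, Tagln, Cnn1 and Des, were called higher than in normoxia. Fibroblast markers summed to 51212 to 66350 in lungs labelled Ahr-KO, 39093 to 47278 in WT SuHx lungs and 16130 to 28154 in WT normoxia lungs, with 3 of 6 called higher in each SuHx group. Their median log2 fold change against normoxia was only 0.37 in lungs labelled Ahr-KO and 0.24 in WT SuHx lungs. The fibroblast marker Pdgfra had 3027 to 3436, 3021 to 3280 and 2395 to 4305 in the same order of groups, so the sums do not stand for all 6 markers.

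ECs held little Ednra, with a signal of 296, 228 and 262, below every lung library. They averaged 262 ± 34.1, against 2917 ± 1259 in normoxia lung (SD, n = 3 each), 10.3-fold lower in ECs (limma, log2 fold change -3.36 ± 0.35 SE, adjusted p = 2.40e-04). Fibroblast RNA was low in the same libraries, with a median log2 fold change of -4.21 for its markers and Pdgfra at 48.7 to 57.8 in ECs against 2395 to 4305 in normoxia lung. Part of the Ednra locus is shared with an uncharacterised gene in the GRCr8 annotation, LOC134483343, so reads of the overlap cannot be assigned here.

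Ednrb encodes the type B receptor. Its signal was 4850, 4902 and 4795 in lungs labelled Ahr-KO, 5536, 6122 and 4355 in WT SuHx lungs and 5728, 6550 and 6690 in WT normoxia lungs. The Ahr-KO values lay within the WT SuHx range and below all normoxia values. Ednrb averaged 4849 ± 53.9 in lungs labelled Ahr-KO and 6323 ± 520 in WT normoxia lungs (SD, n = 3 each), with a log2 fold change of -0.38 ± 0.13 SE (limma, 95% interval -0.67 to -0.09, adjusted p = 0.0967). It passed the threshold when WT SuHx library 2, the lowest of its group, left the fit (adjusted p = 0.0307). Between genotypes the log2 fold change was -0.12 (95% interval -0.41 to 0.16), and between WT SuHx and WT normoxia lungs it was -0.26 (95% interval -0.54 to 0.03). The summed markers of aerocytes were 13835 to 15104 in lungs labelled Ahr-KO and 11263 to 11698 in WT SuHx lungs, against 15557 to 17432 in WT normoxia lungs. Between genotypes 0 of these 6 markers were called, beside 0.499% of all genes. Against normoxia, 0 were higher and 3 lower in WT SuHx lungs (7.08% and 6.39% of all genes). In lungs labelled Ahr-KO 1 was higher and 2 lower (5.95% and 3.8% of all genes).

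ECs had 24249, 25565 and 22567 for Ednrb, all above the lung values. They averaged 24127 ± 1503, against 6323 ± 520 in normoxia lung (SD, n = 3 each), 3.82-fold higher in ECs (limma, log2 fold change 1.93 ± 0.11 SE, adjusted p = 3.14e-05). The 6 aerocyte markers summed to 37987 to 41974 in ECs and 15557 to 17432 in normoxia lung, with 3 called higher and 1 lower.

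The balance of the receptors was taken as log2(Ednra + 1) minus log2(Ednrb + 1) in each library. Gene length cancels when groups are compared, but the measure is not a ratio of molecules. It was -0.35, -0.41 and -0.39 in lungs labelled Ahr-KO, -0.90, -0.92 and -0.85 in WT SuHx lungs and -0.64, -2.16 and -0.88 in WT normoxia lungs. The Ahr-KO values were the highest of the 9 lungs, and the 2 SuHx groups each spread by less than 0.1. The mean was 0.50 higher in Ahr-KO than in WT SuHx lungs (exact permutation test, two-sided, p = 0.1) and 0.85 higher than in WT normoxia lungs (exact permutation p = 0.1). WT SuHx lungs differed from WT normoxia lungs by 0.34 (exact permutation p = 0.9), a value that became -0.12 without normoxia library 1. Between Ahr-KO and WT normoxia lungs, leaving out that library gave 0.38. Between Ahr-KO and WT SuHx lungs, the difference was 0.49 to 0.53 whichever library was left out. The fibroblast sums were also higher in Ahr-KO than in WT SuHx lungs without overlap. Of the 6 fibroblast markers 0 were called (median log2 fold change 0.13), beside 0.499% of all genes, and their part in the receptor balance was not tested. ECs had -6.35, -6.80 and -6.42, below every lung library (difference to normoxia lung -5.30; exact permutation p = 0.1).

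Ece1 encodes the main converting enzyme of big endothelin 1. Its signal was 8019, 7287 and 5250 in lungs labelled Ahr-KO, 8990, 8702 and 7366 in WT SuHx lungs and 8812, 9655 and 9618 in WT normoxia lungs. The Ahr-KO values lay below all normoxia values and overlapped the WT SuHx values. Ece1 averaged 6852 ± 1435 in lungs labelled Ahr-KO and 9362 ± 476 in WT normoxia lungs (SD, n = 3 each), with a log2 fold change of -0.47 ± 0.16 SE (limma, 95% interval -0.82 to -0.12, adjusted p = 0.0939). Against WT SuHx lungs it was -0.30 (95% interval -0.66 to 0.05), and between WT SuHx and WT normoxia lungs -0.17 (95% interval -0.52 to 0.18). ECs, at 27554, 30809 and 23473, were above every lung library and 2.9-fold higher than normoxia lung (limma, log2 fold change 1.54 ± 0.13 SE, adjusted p = 1.14e-04).

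Ece2 encodes a related converting enzyme known for its acidic optimum and its expression in neural tissue. Its signal was 162, 132 and 172 in lungs labelled Ahr-KO, 169, 151 and 149 in WT SuHx lungs and 119, 124 and 94.3 in WT normoxia lungs. All 6 SuHx values lay above the 3 normoxia values. Ece2 averaged 155 ± 21.0 in lungs labelled Ahr-KO, 156 ± 11.3 in WT SuHx lungs and 112 ± 15.6 in WT normoxia lungs (SD, n = 3 each). The log2 fold changes against normoxia were 0.47 ± 0.18 SE in Ahr-KO lungs (limma, adjusted p = 0.136) and 0.48 ± 0.18 SE in WT SuHx lungs (limma, adjusted p = 0.0995). The interval of the difference between genotypes ran from -0.42 to 0.39. ECs had 51.2, 25.3 and 18.7, which was 3.74-fold lower than normoxia lung (limma, log2 fold change -1.90 ± 0.38 SE, adjusted p = 0.00454). With quantile normalization the log2 fold change was -1.18 (adjusted p = 0.0262). A gene of the annotation, LOC102551589, overlaps Ece2, and reads of the overlap cannot be assigned here.

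**Figure D3:**
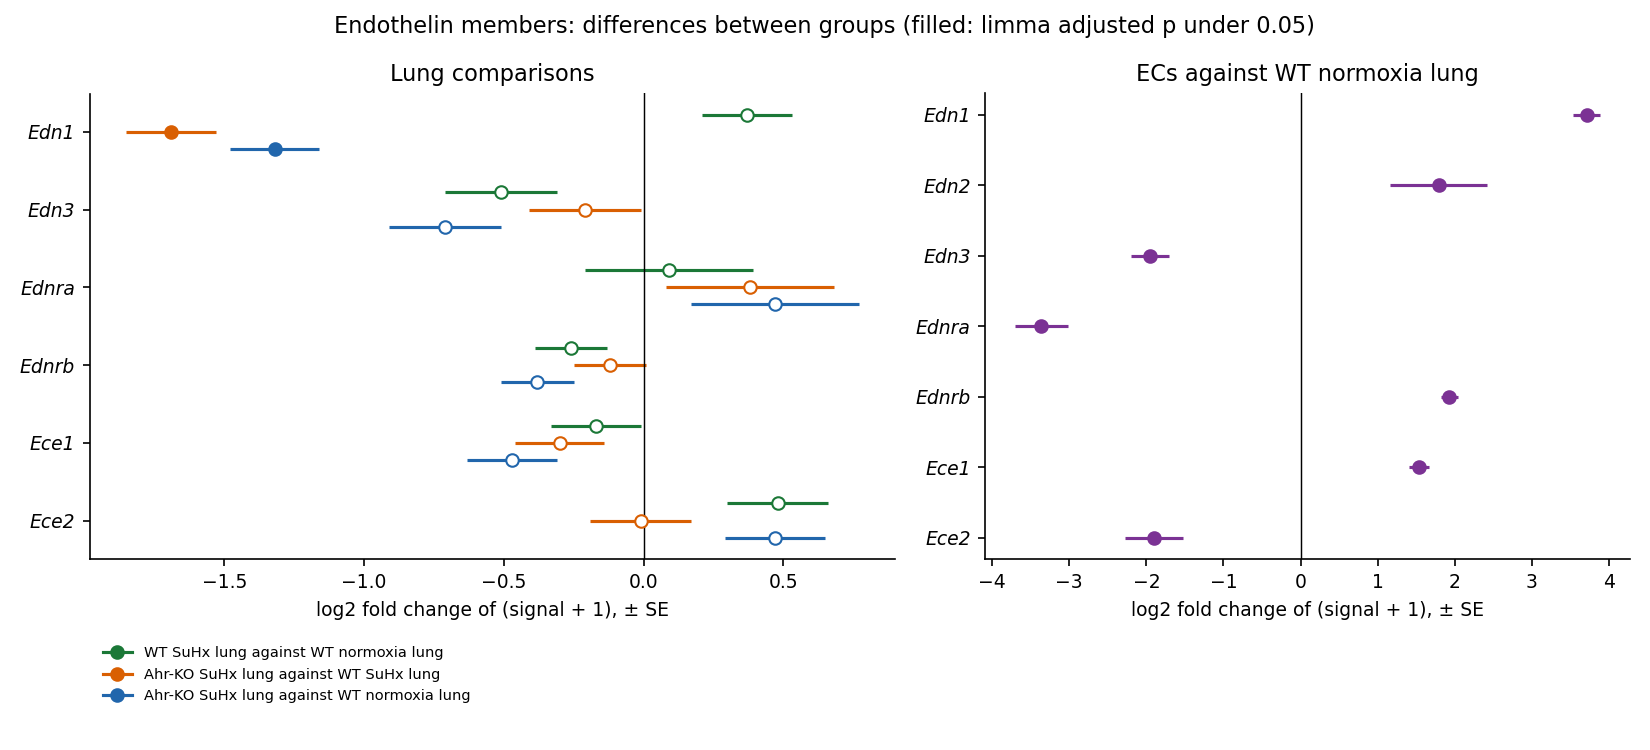
Log2 fold change of (signal + 1) with its limma SE for the members tested, in the 3 lung comparisons (left) and in ECs against WT normoxia lung (right); filled points have an adjusted p under 0.05, and the Edn2 point rests on 2 to 5 reads per EC library. In lung only the 2 Edn1 points of the Ahr-KO comparisons are filled, at -1.69 and -1.32.

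From ECs to lung, the order of the groups differed by gene. For Edn1 it was ECs, then WT SuHx and WT normoxia lungs, which overlapped, then the lungs labelled Ahr-KO. For Ednrb and Ece1 it was ECs, then the 3 lung groups, each overlapping its neighbour. For Ednra it was the lungs labelled Ahr-KO, WT normoxia and WT SuHx lungs, each overlapping its neighbour, then the ECs. For Edn3 and Ece2 the ECs were lowest and the normoxia lungs were set off from both SuHx groups, above them for Edn3 and below them for Ece2. None of these lung differences was called. For Edn3 the limma adjusted p against normoxia was 0.0512 in Ahr-KO and 0.114 in WT SuHx lungs. For Ece2 it was 0.136 and 0.0995. The share of all genes set off in this way was not counted.

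Among the genes that cut or clear endothelins, 3 of 9 tested were called higher in WT SuHx than in WT normoxia lungs and 1 lower, with a median log2 fold change of 0.36 (all genes -0.04; 7.08% of all genes higher and 6.39% lower). In lungs labelled Ahr-KO against WT normoxia lungs 2 were higher and 0 lower, with a median of 0.36 (5.95% of all genes higher and 3.8% lower). Between genotypes 0 were called, beside 0.499% of all genes. Without WT normoxia library 0 or 1, or WT SuHx library 2, 2 of the 4 calls in WT SuHx lungs were left. Kel, the Kell blood group protein of red cells, which in human cleaves big endothelin 3, averaged 342.5 in WT SuHx lungs and 12.5 in WT normoxia lungs, 26.5-fold higher (limma, log2 fold change 4.73 ± 0.47 SE, adjusted p = 4.98e-04). It averaged 271 in lungs labelled Ahr-KO, 18.9-fold above normoxia (limma, adjusted p = 6.16e-04). Alas2, the first enzyme of erythroid haem synthesis, looked up after Kel had been seen, was also higher in both SuHx groups than in normoxia (limma, log2 fold change 1.78 in lungs labelled Ahr-KO, adjusted p = 0.00653, and 2.34 in WT SuHx lungs, adjusted p = 0.00172). It had 1699 to 3536 in lungs labelled Ahr-KO and 2336 to 4254 in WT SuHx lungs, against 561 to 803 in WT normoxia lungs. The row that merges Pcsk6, a furin-like protease, with Snrpa1 was 0.57 higher in WT SuHx than in normoxia lungs on the log2 scale (limma, adjusted p = 0.00888). It was 0.40 higher in lungs labelled Ahr-KO (limma, adjusted p = 0.0419, lost in 11 of 19 alternatives). The reads of the genes in that row cannot be told apart. Mme, or neprilysin, which degrades endothelins, averaged 2860 in WT SuHx lungs and 4227 in WT normoxia lungs, 1.49-fold lower (limma, adjusted p = 0.0288, lost in 7 of 19 alternatives). Ecel1, a relative of the converting enzymes, averaged 5.60 in WT SuHx lungs and 1.10 in WT normoxia lungs (limma, adjusted p = 0.0477, lost in 13 of 18 alternatives). Its signal was 4.73 to 6.12 in WT SuHx lungs and 0 to 1.70 in WT normoxia lungs, so this call, counted among the 3 higher, rests on few reads.

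In ECs against normoxia lung, 4 of these 9 genes were called higher and 3 lower, Kel included (median 0.32, all genes -0.05), beside 26.1% of all genes higher and 30.1% lower. Furin averaged 5795 in ECs and 3791 in normoxia lung (limma, log2 fold change 0.60 ± 0.11 SE, adjusted p = 0.00324), a call lost with quantile normalization (adjusted p = 0.0714). Mme averaged 537 in ECs and 4227 in normoxia lung, 9.07-fold lower (limma, adjusted p = 0.00107). Kel, among those called lower, averaged 0.83 in ECs and 12.5 in normoxia lung. It passed the filter only through normoxia lung, so its adjusted p of 0.00572 (limma) is not counted as a difference. Pcsk5, another precursor protease, averaged 557 in ECs and 776 in normoxia lung (limma, adjusted p = 0.0136).

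Of 28 tested genes that couple the receptors to G proteins, phospholipase C, protein kinase C and receptor desensitisation, 7 were lower and 0 higher in WT SuHx than in WT normoxia lungs (median log2 fold change -0.20, all genes -0.04), beside 6.39% of all genes lower. In lungs labelled Ahr-KO against normoxia, 5 were lower and 0 higher (median -0.19, all genes -0.03), beside 3.8% of all genes lower. Between genotypes 0 of 28 were called, beside 0.499% of all genes. The 7 calls became 4 without WT normoxia library 0 or WT SuHx library 0. The 5 became 0 without Ahr-KO library 1, 1 without Ahr-KO library 2 or normoxia library 1, 2 without normoxia library 0 and 3 without normoxia library 2 or Ahr-KO library 0. Rgs5, a brake on G protein signalling that also marks pericytes, averaged 1781 in WT SuHx lungs and 3813 in WT normoxia lungs (limma, log2 fold change -1.13 ± 0.22 SE, adjusted p = 0.012). Plcb4, a phospholipase C, averaged 1175 in WT SuHx lungs and 2752 in normoxia lungs (log2 fold change -1.23 ± 0.25 SE, limma adjusted p = 0.014). Prkce, a protein kinase C, averaged 853 in WT SuHx lungs and 1636 in normoxia lungs (limma adjusted p = 0.0124). Gnai1, an inhibitory G protein subunit, averaged 1012 in WT SuHx lungs and 1613 in normoxia lungs (limma adjusted p = 0.012). Arrb1, an arrestin, led in lungs labelled Ahr-KO, at 6391 against 10837 in normoxia lungs (limma adjusted p = 0.0199, lost in 4 of 19 alternatives). Gnai1, Prkce and Itpr2, a calcium channel of the endoplasmic reticulum, were also called lower there, at log2 fold changes of -0.59, -0.77 and -0.63. In 3, 7 and 11 of the 19 alternatives these calls were lost.

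General capillary markers were lower in the same lungs, while pericyte markers were mixed. General capillary markers summed to 26694 to 40126 in lungs labelled Ahr-KO and 34460 to 46018 in WT SuHx lungs, against 56247 to 57930 in WT normoxia lungs, with 2 and 3 of 5 called lower and 0 higher. Pericyte markers summed to 5425 to 7039 in lungs labelled Ahr-KO, 5108 to 6795 in WT SuHx lungs and 7314 to 8118 in WT normoxia lungs. Of the 6 pericyte markers, 0 were called higher and 1 lower in lungs labelled Ahr-KO (median log2 fold change -0.01). In WT SuHx lungs 1 was called higher and 1 lower (median 0.12). Rgs5 is both a pericyte marker and a coupling gene here. The part of capillary and pericyte RNA in the coupling genes was not tested. ECs had 17 of the 29 coupling genes tested higher than normoxia lung and 2 lower (median 0.54, all genes -0.05), beside 26.1% of all genes higher and 30.1% lower. Gna13, a G protein subunit, averaged 12584 in ECs and 2352 in normoxia lung, 5.22-fold higher (limma adjusted p = 7.47e-05). Gnai3 averaged 12668 in ECs and 3939 in normoxia lung (limma adjusted p = 9.78e-05), and Prkce 6116 in ECs and 1636 in normoxia lung (limma adjusted p = 1.44e-04). Prkca, another protein kinase C, went the other way, at 694 in ECs and 1308 in normoxia lung (limma adjusted p = 2.43e-04).

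Of 20 tested genes known as regulators of Edn1 transcription, 6 were lower and 0 higher in WT SuHx than in WT normoxia lungs (median -0.23, all genes -0.04), beside 6.39% of all genes lower. In lungs labelled Ahr-KO against WT normoxia lungs 4 were lower and 0 higher (median -0.16, all genes -0.03), beside 3.8% of all genes lower. Between genotypes 0 of 20 were called (median 0.07, all genes 0.02), beside 0.499% of all genes, so that a call there was rare. The 20 include Ahr itself, whose mRNA was not called although Cyp1a1, its target gene, was far lower in lungs labelled Ahr-KO. The counts concern mRNA and do not measure the activity of these factors. The 6 calls became 2 without WT normoxia library 0 or WT SuHx library 0 or 2, and 3 without normoxia library 1 or Ahr-KO library 0 or 1. The 4 became 1 without Ahr-KO library 1, and 2 without normoxia library 0, WT SuHx library 0 or Ahr-KO library 2. Gata2, a GATA factor of endothelial and mast cells, averaged 1946 in lungs labelled Ahr-KO, 1599 in WT SuHx lungs and 3333 in WT normoxia lungs. Its log2 fold changes against normoxia were -0.78 ± 0.09 SE in Ahr-KO lungs (limma, adjusted p = 0.00104) and -1.06 ± 0.09 SE in WT SuHx lungs (limma, adjusted p = 3.44e-04). The 4 mast cell markers summed to 1998 to 3671 in lungs labelled Ahr-KO and 2773 to 3407 in WT SuHx lungs, against 5565 to 6113 in WT normoxia lungs, with Kit alone called lower, and their part was not tested. Foxo1, a forkhead factor, averaged 1245 in lungs labelled Ahr-KO, 1067 in WT SuHx lungs and 1791 in WT normoxia lungs. Its limma adjusted p against normoxia was 0.0335 for the Ahr-KO lungs, lost in 9 of 19 alternatives, and 0.00681 for the WT SuHx lungs. Epas1, the hypoxia-inducible factor HIF-2 alpha, averaged 40231 in lungs labelled Ahr-KO, 46109 in WT SuHx lungs and 83341 in WT normoxia lungs, with limma adjusted p of 0.0136 (Ahr-KO) and 0.0274 (WT SuHx) against normoxia, lost in 1 and 5 of 19 alternatives. Rela, an NF-kappa B subunit, averaged 1740 in lungs labelled Ahr-KO and 2215 in normoxia lungs (limma, adjusted p = 0.0329, lost in 11 of 19 alternatives). Ppara, a nuclear receptor for fatty acids, averaged 132.65 in WT SuHx lungs and 230.7 in normoxia lungs (limma, adjusted p = 0.0323, lost in 7 of 19 alternatives). The summed endothelial markers were also lower in both SuHx groups, with 3 of 10 called lower and 1 higher in each, and their part in these differences was not tested.

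ECs had 12 of the 20 transcription genes higher and 4 lower than normoxia lung (median 0.77, all genes -0.05), beside 26.1% of all genes higher and 30.1% lower. Those with the smallest adjusted p were the immediate early genes Jun, Junb and Fos, and Klf4, a shear-stress factor. Jun was 19.7-fold higher in ECs (limma adjusted p = 6.59e-06), Junb 37.4-fold (6.41e-05) and Fos 132-fold (4.07e-05). Klf4 averaged 29382 in ECs and 2990 in normoxia lung, 9.78-fold higher (limma adjusted p = 1.25e-05).

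**Figure D4:**
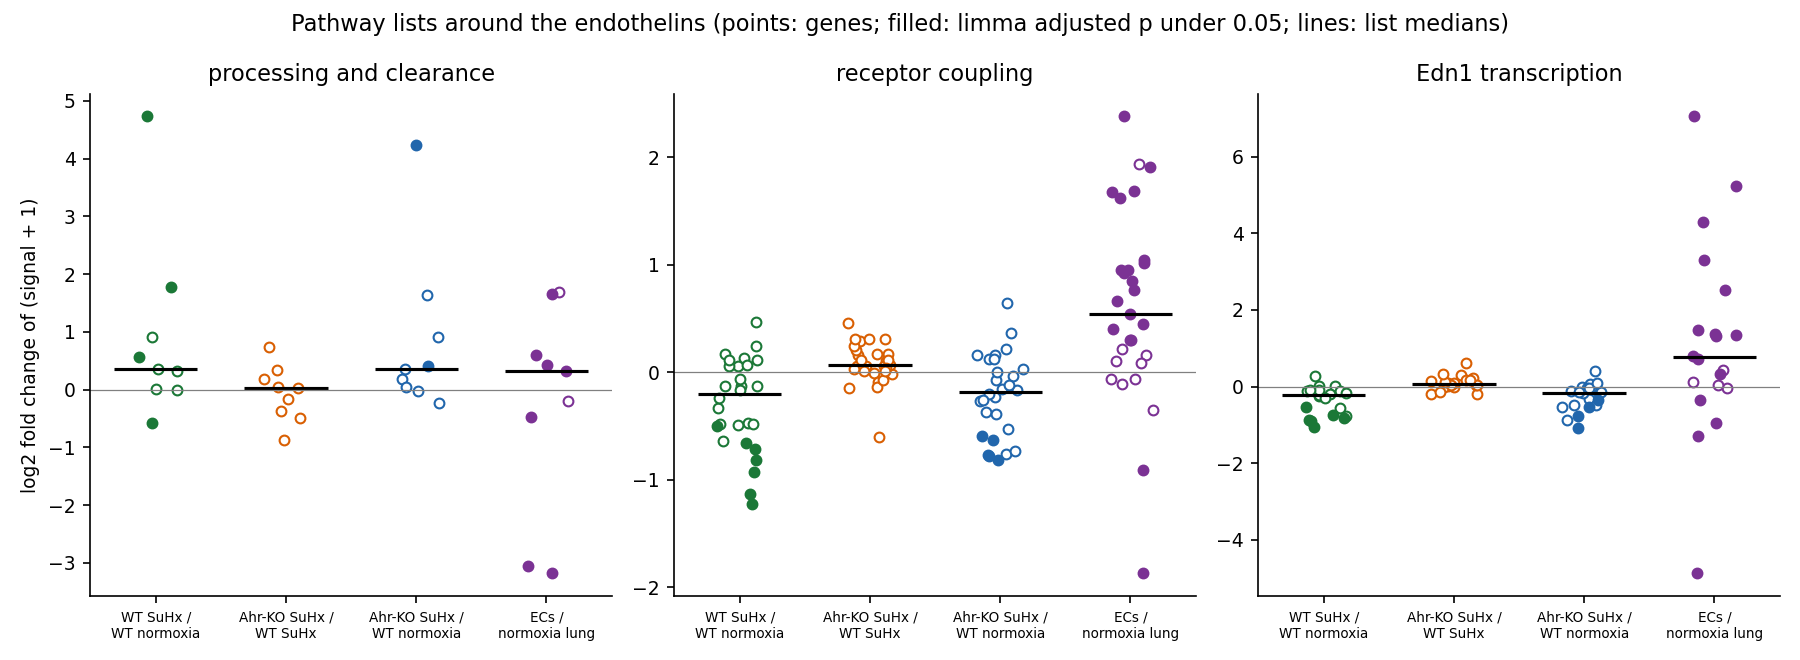
Log2 fold change of (signal + 1) of each gene of the 3 pathway lists (panels) in the 4 comparisons (horizontal axis); filled points have a limma adjusted p under 0.05 and lines are list medians. Between genotypes no point is filled, beside 0.499% of all genes called. In ECs against normoxia lung 17 coupling genes lie above 0 with a call, beside 26.1% of all genes called higher.

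Over the 9 lung libraries, which share groups and depth, the members were compared by Pearson r of log2(signal + 1) as a description. The highest r was 0.74, between Ednrb and Ece1, followed by 0.68 between Edn1 and Ece1. The lowest was -0.63, between Ednrb and Ece2, and Edn1 and Ednra had -0.51. Among 12603 genes, those most like Edn1 were Hps6 (r = 0.984), Acvrl1 (0.978), Nsfl1c (0.971), Ctsw (0.961) and Vps18 (0.958). Acvrl1, the endothelial BMP receptor ALK1, averaged 9034.5 in lungs labelled Ahr-KO, 18969 in WT SuHx lungs and 16822 in WT normoxia lungs. Its log2 fold change was -1.08 in lungs labelled Ahr-KO against WT SuHx lungs (limma, adjusted p = 0.00758) and -0.91 against WT normoxia lungs (limma, adjusted p = 0.00277). Acvrl1 was picked by its r with Edn1 over these same libraries, so its lung p-values are not independent of that choice. In ECs it averaged 39254, which was 1.22 above normoxia lung on the log2 scale (limma, adjusted p = 2.33e-04). Hps6, by contrast, averaged 277.9 in lungs labelled Ahr-KO and 363 in WT SuHx lungs, and 266 in ECs against 338 in normoxia lung.

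For Ednra the most alike genes over the same libraries were Abtb2 (r = 0.968), Wnt2 (0.965), Birc3 (0.961), Trim2 (0.955) and Tmem200c (0.955). Wnt2, a secreted ligand, averaged 558 in lungs labelled Ahr-KO, 437 in WT SuHx lungs and 372 in WT normoxia lungs. For Ednrb they were Rbm27 (0.971), Zfp800 (0.963), Dnttip2 (0.959), Entpd5 (0.931) and Mapkap1 (0.925). For Ece1 they were Jun (0.989), Rtf1 (0.971), Traf5 (0.964), Rmdn3 (0.961) and Ufl1 (0.960). Jun averaged 4294 in lungs labelled Ahr-KO, 4911 in WT SuHx lungs and 5347 in WT normoxia lungs. That is the same order of groups as Ece1, which the choice by r favours.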

How the data were processed

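RNA-seq of 12 libraries was analysed from the table the authors deposited. Its signal values are read counts divided by 1 factor per library, as the deposited values themselves show: 80.9% to 81.8% of values above 0 lay within 0.05 of a whole number of reads, and the rest were fractions. The submitters' processing notes name the rn6 build and FastQC. The aligner, the counting and its use of strand, and the normalization were not given in the sources used here. Columns were assigned to groups by name. Their suffixes do not match the numbers in the sample titles, so they were not tied to single samples.

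Because the values were not whole counts throughout, limma 3.58.1 in R 4.3.3 (trend, two-sided, Benjamini-Hochberg over all genes tested) was run on log2(signal + 1) for genes whose mean signal reached 1. One fit covered the 9 lung libraries and another the ECs with normoxia lung. It was tested on simulated data. Named genes were all members, up to 4 called genes with the smallest adjusted p per pathway list and comparison, the 5 genes most correlated with Edn1, Ednra, Ednrb and Ece1, and markers beside a result. Genes outside the rule, chosen after their values were seen, were Alas2 and Cyp1a1. One result is not reported here. The members and lists were chosen with earlier results of these data known. Pathway genes were counted without a set test. The alternatives changed the pseudocount, the filter, the scaling, the fit, the block and the libraries used.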

Additional observations from a re-analysis of the deposited data

How the results depend on the processing

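The Edn1 calls held in all alternatives of the comparisons tested: log2 fold changes were -1.82 to -1.58 in lungs labelled Ahr-KO against WT SuHx lungs, -1.45 to -1.16 against WT normoxia lungs, and 3.39 to 3.89 in ECs against normoxia lung. Other calls moved, and the causes were not tested. Directions turned for Ednra in WT SuHx against WT normoxia lungs (-0.35 without normoxia library 1, -0.00 without WT SuHx library 1, up to 0.31 without normoxia library 0) and for Ece2 between genotypes (0.04 without WT SuHx library 0, 0.10 without Ahr-KO library 1, -0.09 without Ahr-KO library 2, and -0.12 with quantile normalization). None of these values was called. For Edn2 in ECs, adjusted p was 0.0539 with a pseudocount of 0.1, 0.0877 with the block, and 0.115 to 0.131 without normoxia library 0 or 1 or EC library 0 or 1.

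In lungs labelled Ahr-KO against normoxia, 2 members were called, not 1, with quantile normalization and with a minimum mean of 5; the second was Edn3. All genes called numbered 47 without the trend and 126 with all 12 libraries in the genotype comparison, where the main count was 76. In WT SuHx against normoxia lungs 2 cutting and clearing genes were called, not 4, when only those groups were fitted. In lungs labelled Ahr-KO against normoxia that list had 1 call, not 2, without the trend, with those groups alone, and without library 2 of both groups. The coupling list there had 2 calls without the trend, 3 with no filter and 0 without library 2 of both groups, against 5, and the transcription list had 2 without the trend and 2 with quantile normalization, against 4. In ECs 4 cutting and clearing genes were called, not 7, with quantile normalization, Kel included.

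Same-suffix libraries deviated from their group means with a correlation of -0.04 to 0.22 over 9 pairs, against -0.2 to 0.18 over 18 other pairs, so the suffix was not taken as a pairing. With the suffix as a replicate block, 3385 genes were called in WT SuHx against normoxia lungs (main count 2052; 45.7% of calls higher, against 52.6%) and 11 coupling genes (main count 7). It called 82 genes between genotypes and left each lung call of the members on its side of the threshold.

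With 1 library left out in turn, called members ranged from 0 to 0 in WT SuHx against normoxia, 1 to 1 between genotypes, 1 to 2 in Ahr-KO against normoxia and 6 to 7 in ECs, Edn2 included. In the same order of comparisons, all genes called ranged from 862 to 2380, 32 to 100, 721 to 1882 and 7239 to 8069. Calls in the cutting and clearing list ranged from 2 to 4, 0 to 0, 1 to 3 and 5 to 7, Kel included. Those in the coupling list ranged from 4 to 8, 0 to 0, 0 to 5 and 17 to 20, and those in the transcription list from 2 to 6, 0 to 0, 1 to 5 and 15 to 16. The lowest genome-wide counts came without WT SuHx library 0 (862 and 32), Ahr-KO library 1 (721) and normoxia library 0 (7239).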
